A study of Mus musculus with 6 samples.

Results

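Proteoglycans, tenascins and matricellular proteins are secreted or cell-surface molecules of the extracellular matrix. A list of 40 such genes was read from the RNA-seq counts of cultured mouse neural stem cells (NSCs) with and without miR-151. The genes were listed by name from 12 families, with earlier results of these data known. All 40 were among the 32493 genes of the count table, and 32 of them had enough reads to be tested. The NSCs came from the lateral ventricle walls of E14.5 C57BL/6J embryos and were passaged in medium with EGF and bFGF before RNA was taken. Both genotypes carried miR-151 flanked by loxP sites, on both alleles. The cko embryos also carried Emx1-IRES-Cre, a driver of Cre in dorsal telencephalic progenitors. The ctrl embryos, labelled wt, had no Cre. Cells outside the Emx1 lineage would keep the miRNA, and *Mir151* itself is not a row of the table, so the deletion could not be read from these counts.

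Of 6 deposited columns, 5 held independent counts, namely ctrl libraries 1 and 3 and cko libraries 1, 2 and 3. The column of ctrl 2 equalled the mean of ctrl 1 and ctrl 3, rounded up, in 32493 of 32493 genes and was left out. The comparison was therefore made between 2 ctrl and 3 cko libraries of 17883796 to 23335736 counts, in which 3 counts correspond to 0.129 to 0.168 CPM (counts scaled to the size of the library). The sources do not say whether the libraries of a genotype came from separate embryos, so p-values measure the spread between these libraries. The cko libraries lay close together, with 76 to 165 of 16710 tested genes more than 2-fold apart in a pair (after adding 0.5 CPM), against 682 for the 2 ctrl libraries. NSC markers summed to 8151 and 7146 normalized CPM in ctrl and to 9067, 8472 and 8349 in cko NSCs, so that each cko library exceeded both ctrl libraries. That separation rested on *Vim*, the largest part of the sums, and without it not every cko library exceeded both ctrl libraries. *Vim* was at 3101 and 1995 in ctrl and at 3547, 3374 and 3398 in cko NSCs and was not called (adjusted p = 0.129 in edgeR). Of the 10 NSC markers, 3 were higher (30%) and 1 lower (10%) in cko NSCs, where 7.86% of all tested genes were higher and 8.57% lower. *Cx3cr1* and *Tmem119* of microglia and *Cdh5* of endothelium had no reads in any library, and the microglial list summed to at most 1.23 normalized CPM. Sex-linked genes differed between the genotypes. *Xist*, transcribed from the inactive X chromosome, was at 2889 and 2557 normalized CPM in ctrl and at 787, 849 and 894 in cko NSCs, and the Y-linked *Kdm5d* was at 25.1 and 27.0 against 68.9, 69.1 and 67.6. The sex of the embryos is not given, and its part in the differences below was not tested.

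The neural extracellular matrix is built on hyaluronan, a long sugar polymer made at the plasma membrane by hyaluronan synthases. Lecticans are chondroitin sulfate proteoglycans that bind hyaluronan at one end, where small link proteins lock the bond, and tenascins at the other. Syndecans and glypicans carry heparan sulfate at the cell surface and present growth factors such as FGFs to their receptors. Small leucine-rich proteoglycans, such as decorin and lumican, belong mainly to collagen-rich connective tissue. Matricellular proteins, among them SPARC, the SMOC proteins and thrombospondins, sit in the matrix and modulate adhesion and signalling rather than carry load.

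The promoters of the 3 lectican and tenascin genes that changed between genotypes, and of the member with the largest change, *Sdc4*, are shown because they allow the letters recognised by Notch and SOX factors to be seen where they occur. Each window runs from 250 bases before to 50 bases after a RefSeq start site, written 5′ to 3′ on the strand of the gene (RefSeq, GRCm38.p6). Capitals mark TGGGAA, the core recognised by the Notch effector RBPJ, and ACAAAG, a core recognised by SOX factors, on either strand. The windows are chr1:159523519-159523818 on the plus strand for *Tnr*, and, on the minus strand, chr4:64046966-64047265 for *Tnc*, chr13:89742463-89742762 for *Vcan* and chr2:164443139-164443438 for *Sdc4*.
Tnr: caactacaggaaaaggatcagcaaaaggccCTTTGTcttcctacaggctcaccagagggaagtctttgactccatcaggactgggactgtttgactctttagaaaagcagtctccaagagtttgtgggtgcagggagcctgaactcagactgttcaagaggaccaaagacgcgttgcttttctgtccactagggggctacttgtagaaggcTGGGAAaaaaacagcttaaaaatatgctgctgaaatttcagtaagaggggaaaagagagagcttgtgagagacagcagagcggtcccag
Tnc: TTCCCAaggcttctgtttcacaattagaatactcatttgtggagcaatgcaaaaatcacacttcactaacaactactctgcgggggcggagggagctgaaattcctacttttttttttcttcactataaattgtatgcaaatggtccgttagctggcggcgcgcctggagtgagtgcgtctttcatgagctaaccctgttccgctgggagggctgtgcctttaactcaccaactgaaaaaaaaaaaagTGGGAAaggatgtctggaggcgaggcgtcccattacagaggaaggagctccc
Vcan: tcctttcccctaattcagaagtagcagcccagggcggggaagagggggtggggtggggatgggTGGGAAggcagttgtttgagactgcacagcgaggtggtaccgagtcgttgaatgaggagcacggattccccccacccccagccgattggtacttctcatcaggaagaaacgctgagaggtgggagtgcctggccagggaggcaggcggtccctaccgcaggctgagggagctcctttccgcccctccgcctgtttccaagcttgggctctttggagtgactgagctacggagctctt
Sdc4: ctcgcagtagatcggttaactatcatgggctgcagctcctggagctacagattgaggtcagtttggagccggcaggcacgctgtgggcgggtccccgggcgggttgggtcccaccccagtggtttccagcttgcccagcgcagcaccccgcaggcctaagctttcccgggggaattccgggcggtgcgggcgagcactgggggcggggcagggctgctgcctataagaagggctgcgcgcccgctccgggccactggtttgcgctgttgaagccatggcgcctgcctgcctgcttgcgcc
In *Tnr*, which was lower in cko NSCs, TGGGAA begins 39 bases before the start site and ACAAAG lies on the opposite strand at 220 bases before it. *Tnc* and *Vcan*, both higher, hold TGGGAA at 2 and 187 bases before the start, and *Tnc* holds it once more on the opposite strand at 250 bases. These *Tnc* positions belong to the start site shown. The window of a second RefSeq start site of *Tnc*, chr4:64046887-64047186, holds TGGGAA only once, at 81 bases before that start. Neither core occurs in the *Sdc4* window. Over the 30 promoters of the 27 members that could be matched, 33.3% held TGGGAA, 13.3% held ACAAAG and 0 held CACGTG, the E-box bound by HES and HEY repressors. The shares among all 32851 promoters of this length were 25.6%, 18.7% and 7.15%. The RBPJ core was thus present in genes that moved in either direction, and these letters describe the windows only.

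Among the 32 tested members, the levels of 5 rose and of 8 fell in cko NSCs, with a Benjamini-Hochberg adjusted p under 0.05 over all 16710 tested genes (edgeR's quasi-likelihood test). *Hapln1*, *Dcn*, *Bgn*, *Fmod*, *Lum*, *Spock1*, *Spock3* and *Smoc2* had too few reads for the test. These were 15.6% and 25.0% of the tested members, where 7.86% of all tested genes were called higher and 8.57% lower. *Tnc*, *Gpc1*, *Vcan*, *Has2* and *Smoc1* rose, and *Sdc4*, *Tnr*, *Sparcl1*, *Hspg2*, *Gpc3*, *Sparc*, *Spock2* and *Cd44* fell. The median log2 fold change of the tested members was -0.17, against -0.0026 for all genes. Of the lower genes, 6 also passed the threshold used in the study, a log2 fold change beyond 0.9 with an unadjusted p under 0.01, which 4.17% of all tested genes passed in this direction. In the higher direction, which 2.39% of all genes passed, 0 members reached it in edgeR or in DESeq2, and the 5 called genes had fold changes between 1.33 and 1.70. The libraries of the genotypes did not overlap in 17 of the 32 members, 7 of them higher and 10 lower, where 49.7% of all tested genes did not overlap. The calls changed when 1 library was left out. This also left fewer libraries for the test, and the part of each cannot be told apart here. The share of all tested genes called in such fits was not counted, so their member counts cannot be set against it. Without cko 2 or without cko 3, 1 member was higher and 4 were lower, without cko 1 the counts were 3 and 6, without ctrl 1 they were 5 and 11, and without ctrl 3 they were 8 and 8. Of the 13 called genes, *Tnr*, *Sdc4*, *Hspg2*, *Spock2* and *Gpc1* were called in all 13 alternatives.

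**Figure D1:**
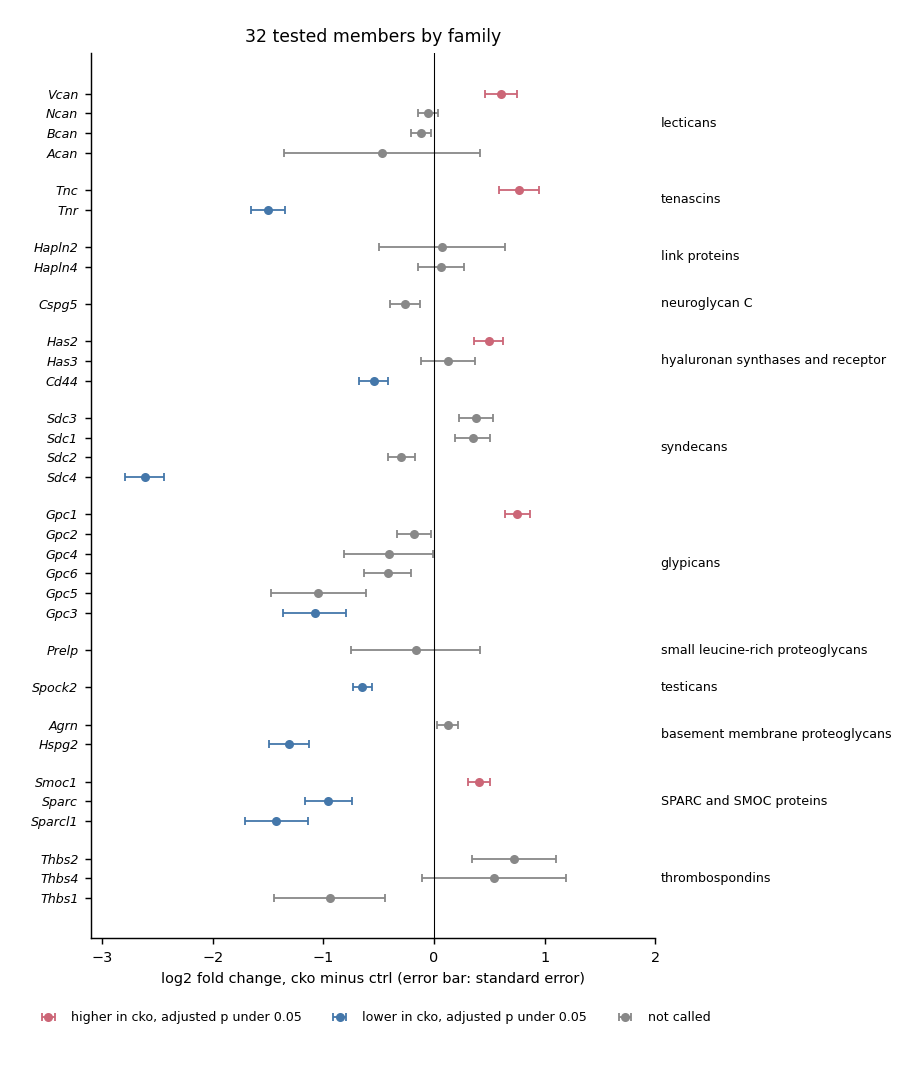
The log2 fold change of cko minus ctrl NSCs is plotted with its standard error for the 32 tested members, grouped by family. *Sdc4* lies farthest to the left at -2.61 and *Tnc* farthest to the right at 0.77, and the tenascins, glypicans, SPARC and SMOC proteins and the hyaluronan genes each hold calls in both directions.

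The lecticans *Bcan* and *Ncan* had the highest mean levels per kb of exon among the members in both genotypes, although *Sparcl1* exceeded *Ncan* in ctrl 1, and of the 4 lecticans only *Vcan* was called. *Bcan*, which encodes brevican, was measured at 1607 and 1417 normalized CPM in ctrl and at 1339, 1372 and 1479 in cko NSCs (log2 fold change -0.11, standard error 0.092, adjusted p = 0.429 in edgeR). *Ncan*, which encodes neurocan, was at 1804 and 2028 against 1919.5, 1796 and 1822 (log2 fold change -0.05, standard error 0.088, adjusted p = 0.713 in edgeR). In both genes the ctrl and cko libraries overlapped. *Vcan* encodes versican, the lectican with the widest distribution outside the brain. Its level was 260.5 and 180.0 normalized CPM in ctrl and 337, 331 and 338 in cko NSCs, so that each cko library exceeded both ctrl libraries. The log2 fold change was 0.61 (standard error 0.15, adjusted p = 0.0311 in edgeR), and the adjusted p was 0.0871, 0.112 and 0.115 without cko 1, 2 and 3. *Acan*, the aggrecan gene, had 2 and 18 counts in ctrl and 3, 9 and 11 in cko NSCs, too few to place the genotypes. *Cspg5*, which encodes the membrane-bound neuroglycan C, was at 517 and 707 against 548, 501 and 485 normalized CPM (log2 fold change -0.26, adjusted p = 0.228 in edgeR). Against ctrl 3 alone, it was called lower (-0.48, adjusted p = 0.00448).

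The 2 tenascin genes moved apart. *Tnr* encodes tenascin-R, which is made in the nervous system, in large part by oligodendrocyte-lineage cells. It was measured at 901 and 856 normalized CPM in ctrl and at 379.7, 260.0 and 292 in cko NSCs, with no overlap (log2 fold change -1.501, standard error 0.15, adjusted p = 0.00195 in edgeR). *Tnc* encodes tenascin-C, a product of radial glia and of the neural stem cell niche. Its level was 421 and 591 in ctrl and 707, 964 and 915 in cko NSCs, higher in each cko library than in either ctrl library (log2 fold change 0.77, standard error 0.18, adjusted p = 0.0288 in edgeR). The call on *Tnc* was lost without cko 2 (adjusted p = 0.123) and without cko 3 (adjusted p = 0.117). Per kb of exon, the ratio of *Tnc* to *Tnr* was 0.774 and 1.14 in the ctrl libraries and 3.08, 6.14 and 5.20 in the cko libraries. Because both genes are read in the same library, this ratio does not depend on how libraries are scaled. The sum of both tenascins was 1322 and 1447 normalized CPM in ctrl and 1087, 1224 and 1207 in cko NSCs.

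Each lectican gene lies next to a link protein gene in GRCm38 (GENCODE M21), with no other protein-coding gene between. *Ncan* and *Hapln4* are 2.22 kb apart on chromosome 8, *Bcan* and *Hapln2* 21.5 kb apart on chromosome 3, and *Vcan* and *Hapln1* 43.7 kb apart on chromosome 13. The neighbours did not share their level. *Hapln4* was at 8.43 and 13.6 normalized CPM in ctrl and at 11.0, 11.5 and 11.9 in cko NSCs (log2 fold change 0.06, adjusted p = 0.868 in edgeR), and per kb of exon *Ncan* exceeded it by 95.1-fold in ctrl and 88.0-fold in cko NSCs. *Hapln2* had between 6 and 13 counts per library. *Hapln1*, the partner of *Vcan*, had 0 to 2 counts in any library and could not be tested. *Hapln3*, which is no member but lies beside *Acan*, was at 1.40 and 1.23 against 1.29, 1.71 and 1.29 normalized CPM. Link protein transcripts were thus rare in these cultures, in both genotypes, while lectican transcripts made up 0.350% to 0.369% of all counts.

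The 9 genes of the neural matrix, namely 4 lecticans, 2 tenascins and 3 link proteins, contrasted with the 5 small leucine-rich proteoglycans first in level. They summed to 5003 and 5087 normalized CPM in ctrl and to 4694, 4736 and 4859 in cko NSCs. The small leucine-rich proteoglycans summed to 6.07 and 2.93 against 2.57, 3.17 and 3.35. Of the neural matrix genes 8 were tested, with 2 higher (25.0%) and 1 lower (12.5%), where 7.86% of all tested genes were higher and 8.57% lower. Their median log2 fold change was 0.0044, and it was -0.20 without ctrl 1 and 0.41 without ctrl 3. Of the small leucine-rich proteoglycans only *Prelp* passed the filter on low counts. *Prelp* encodes prolargin, and its level was set by the ctrl libraries, with 5.55 and 0.960 normalized CPM in ctrl and 2.57, 3.09 and 3.17 in cko NSCs (log2 fold change -0.16, standard error 0.58, adjusted p = 0.877 in edgeR). Against ctrl 1 alone *Prelp* was lower (log2 fold change -0.90, adjusted p = 0.0325), and against ctrl 3 alone it was higher (1.605, adjusted p = 0.0167).

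The other small leucine-rich proteoglycans had few or no reads. *Bgn*, which encodes biglycan, had 5 and 31 counts in ctrl and 0, 1 and 3 in cko NSCs. Summed over libraries, its share of the counts was 13.6-fold higher in ctrl (95% exact interval 4.87 to 52.5, counting error only), an interval that leaves out the spread between the ctrl libraries. Without ctrl 3, which held most of the reads, the share was 3.46-fold higher in ctrl (0.744 to 17.4), without ctrl 1 it was 25.7-fold and without cko 3 it was 35.6-fold higher. *Dcn*, the decorin gene, had 3 and 4 counts against 0, 1 and 1. *Lum*, the lumican gene, had 4 and 2 counts against 0 in each cko library, and *Fmod*, the fibromodulin gene, had 0 in all 5. Without a filter on low counts, *Bgn* was called lower (adjusted p = 7.73e-05 in edgeR), and *Dcn* (0.501) and *Lum* (0.203) were not. Fibroblast markers were lower beside these genes, with sums of 13.1 and 21.2 normalized CPM in ctrl and 4.14, 4.80 and 5.97 in cko NSCs. Most of that sum was *Foxc1* (10.7 and 15.3 against 3.25, 3.60 and 3.86), while *Twist2* had no reads in any library. Of the 10 markers 2 were tested and 1 was called lower (50% of those tested), where 8.57% of all tested genes were lower. The part of such cells in the counts was not tested.

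**Figure D2:**
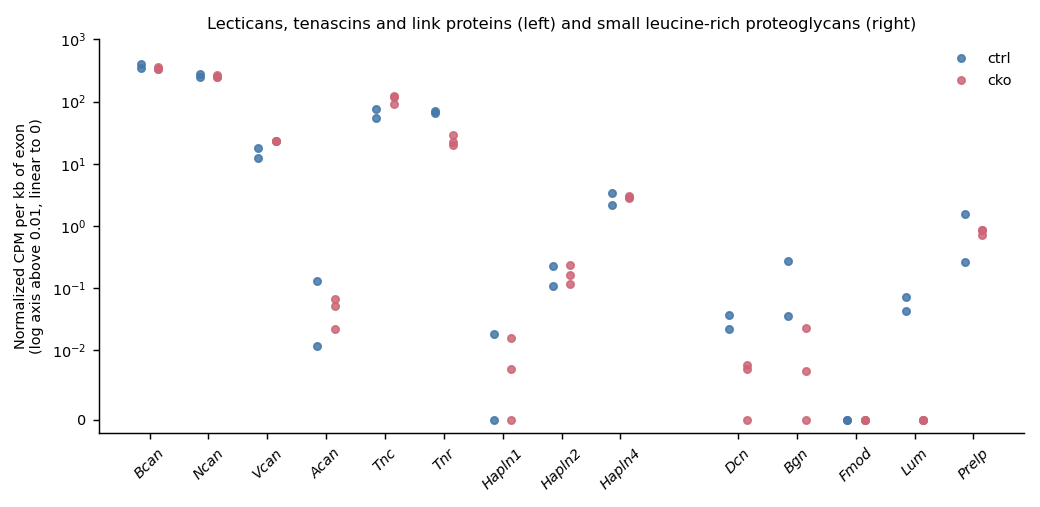
Each point is 1 library, plotted as normalized CPM per kb of exon on an axis that is logarithmic above 0.01 and linear from there to 0, with ctrl in blue and cko in red. Among these 14 genes *Bcan* and *Ncan* lie highest in every library, whereas *Dcn*, *Bgn*, *Fmod* and *Lum* lie below 1. *Acan*, *Hapln1* and *Hapln2* of the neural matrix also lie below 1. *Tnc* and *Tnr* separate the genotypes in opposite directions.

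Among the members, *Has2* and *Has3* encode hyaluronan synthases, and *Cd44* encodes a receptor that binds hyaluronan at the cell surface. *Has1*, a further synthase gene that is no member, was at 1.27 and 2.35 normalized CPM in ctrl and at 2.35, 3.34 and 2.80 in cko NSCs. It was not called (log2 fold change 0.67, adjusted p = 0.220 in edgeR). *Has2* was at 9.87 and 11.3 normalized CPM in ctrl and at 15.5, 14.4 and 14.8 in cko NSCs, with no overlap (log2 fold change 0.49, standard error 0.13, adjusted p = 0.0449 in edgeR). An antisense gene, *Has2os*, overlaps 4.30% of its exon bases, and strand was not stated for the counts. *Has3* was at 5.11 and 4.91 against 4.20, 5.23 and 6.94, and the genotypes overlapped (log2 fold change 0.13, adjusted p = 0.765 in edgeR). *Cd44* fell from 27.6 and 22.5 to 16.4, 16.4 and 18.7 normalized CPM (log2 fold change -0.55, standard error 0.13, adjusted p = 0.0328 in edgeR). Both calls lay near the threshold. *Has2* had adjusted p-values of 0.0946 to 0.161 without ctrl 1 or any one of the cko libraries, and *Cd44* had values of 0.0709 to 0.130 without the same libraries.

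Among the syndecans, *Sdc4* changed more than any other tested member. Syndecan-4 is a heparan sulfate proteoglycan of focal adhesions. Its gene was at 35.5 and 47.2 normalized CPM in ctrl and at 7.44, 5.62 and 7.22 in cko NSCs, a 6.12-fold difference (log2 fold change -2.61, standard error 0.17, adjusted p = 0.000668 in edgeR). The lowest ctrl library was far above the highest cko library, and the log2 fold change lay between -2.82 and -2.39 over 13 alternatives. *Sdc3*, the syndecan of neural tissue and the most abundant of the family, was at 432 and 625 in ctrl and at 628, 734 and 701 in cko NSCs (log2 fold change 0.38, standard error 0.16, adjusted p = 0.140 in edgeR). The cko libraries lay above both ctrl libraries, but cko 1 and ctrl 3 were nearly equal, and against ctrl 1 alone *Sdc3* was called higher (0.68, adjusted p = 0.00187). *Sdc1* (0.35, adjusted p = 0.180 in edgeR) and *Sdc2* (-0.29, adjusted p = 0.150) were not called. They were called without ctrl 3 (0.55, adjusted p = 0.0406) and without cko 1 (-0.42, adjusted p = 0.0478), respectively. Per kb of exon, *Sdc3* exceeded *Sdc4* by 5.18-fold and 5.64-fold in the ctrl libraries and by 35.9-fold, 55.6-fold and 41.3-fold in the cko libraries.

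Glypicans are tied to the membrane by a lipid anchor. *Gpc1* was the most abundant in both genotypes per kb of exon and the only one to rise, from 117 and 138 normalized CPM in ctrl to 191, 225 and 227 in cko NSCs (log2 fold change 0.75, standard error 0.11, adjusted p = 0.00644 in edgeR). It was called in all alternatives, with log2 fold changes of 0.62 to 0.88. The coding gene *Ankmy1* overlaps 18.9% of its exon bases on the other strand but held only 3 to 8 counts per library. *Gpc3*, on the X chromosome, fell from 2.53 and 2.35 to 1.34, 0.986 and 1.15 (log2 fold change -1.08, standard error 0.28, adjusted p = 0.0405 in edgeR). Its counts were 58 and 44 against 24, 23 and 25, and the call was lost when any one of the 5 libraries was left out (adjusted p = 0.0578 to 0.148). Its neighbour *Gpc4* was at 8.43 and 26.5 in ctrl, so that the cko values of 14.0, 11.8 and 13.4 fell between them (adjusted p = 0.526 in edgeR). Against ctrl 1 alone *Gpc4* was higher (0.64, adjusted p = 0.0323) and against ctrl 3 alone lower (-1.03, adjusted p = 0.00139). *Gpc5* (-1.04, adjusted p = 0.138 in edgeR), *Gpc6* (-0.42, adjusted p = 0.223) and *Gpc2* (-0.18, adjusted p = 0.460) were not called, and *Gpc6* was called lower without ctrl 1 (-0.79, adjusted p = 0.00127). *Gpc2* shares 55.6% of its exon bases with the readthrough gene *Gm43720*, which had 0 counts in every library, so its level is uncertain.

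Perlecan and agrin are the large heparan sulfate proteoglycans of basement membranes. *Hspg2*, the perlecan gene, fell from 77.4 and 119 normalized CPM in ctrl to 35.6, 38.5 and 44.8 in cko NSCs, with no overlap (log2 fold change -1.31, standard error 0.18, adjusted p = 0.00495 in edgeR). *Agrn*, the agrin gene, was at 641 and 667 against 638, 732 and 767, with cko 1 below both ctrl libraries (log2 fold change 0.12, standard error 0.097, adjusted p = 0.418 in edgeR). The ratio of *Agrn* to *Hspg2* per kb of exon was 12.7 and 8.63 in ctrl and 27.6, 29.3 and 26.4 in cko NSCs.

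Testicans are secreted proteoglycans of the nervous system. *Spock2* fell from 119 and 112 normalized CPM to 69.3, 72.02 and 79.97, with tight libraries in both genotypes (log2 fold change -0.65, standard error 0.086, adjusted p = 0.00436 in edgeR). *Spock1*, with 2 and 19 counts against 1, 3 and 3, and *Spock3*, with at most 1 count per library, were not tested.

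SPARC and SMOC proteins moved in both directions. SPARC binds collagen and counters adhesion, and its relative SPARCL1, or hevin, is made by astrocytes and promotes synapse formation. *Sparc* fell from 549.6 and 307 normalized CPM in ctrl to 201, 226 and 236 in cko NSCs (log2 fold change -0.96, standard error 0.21, adjusted p = 0.0252 in edgeR). *Sparcl1* fell from 804 and 455 to 315, 182 and 207 (log2 fold change -1.43, standard error 0.28, adjusted p = 0.0169 in edgeR). In both genes ctrl 1 was far above ctrl 3, and the cko libraries were below either. Against ctrl 3 alone the log2 fold changes were -0.48 for *Sparc* and -0.97 for *Sparcl1*, and against ctrl 1 alone -1.31 and -1.78. The adjusted p of *Sparc* was 0.0871, 0.0937 and 0.0854 without cko 1, 2 and 3, and that of *Sparcl1* was 0.0749 without cko 2 and 0.0840 without cko 3. *Smoc1*, which encodes a calcium-binding modulator of BMP signalling, rose from 402 and 357 to 465, 502 and 545 (log2 fold change 0.41, standard error 0.098, adjusted p = 0.0307 in edgeR), but not without cko 2 or cko 3 (adjusted p = 0.130 and 0.138). Its relative *Smoc2* had 2 and 0 counts in ctrl and 5, 7 and 16 in cko NSCs, a 9.28-fold higher share of the summed cko counts (95% exact interval 2.34 to 80.4, counting error only). Without cko 3 this was 6.07-fold, without ctrl 3 it was 5.06-fold, and without ctrl 1 no ctrl read remained. Per kb of exon, *Smoc1* was at 0.420 and 0.659 times the level of *Sparcl1* in ctrl and at 1.24, 2.32 and 2.21 times in cko NSCs. In mean level per kb among the members, *Smoc1* ranked 5 in ctrl and 3 in cko NSCs, and *Sparcl1* ranked 3 and 6.

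Thrombospondins, which astrocytes secrete to promote synapses, were rare. *Thbs1* had 17 and 36 counts in ctrl and 12, 20 and 11 in cko NSCs, *Thbs2* had 24 and 18 against 19, 48 and 40, and *Thbs4* had 5 and 14 against 6, 19 and 19. The log2 fold changes were -0.94, 0.73 and 0.54, with standard errors of 0.499, 0.38 and 0.65, and none was called (adjusted p = 0.236, 0.232 and 0.609 in edgeR). *Thbs2* and *Smoc2* are neighbours on chromosome 17, with no coding gene in the 261 kb between them. In both, no cko library had fewer normalized CPM than a ctrl library, which also held for 25.4% of all tested genes. In *Thbs2* cko 1, at 1.06, barely exceeded ctrl 1, at 1.05, and *Smoc2*, with 2 and 0 ctrl counts, was not tested.

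**Figure D3:**
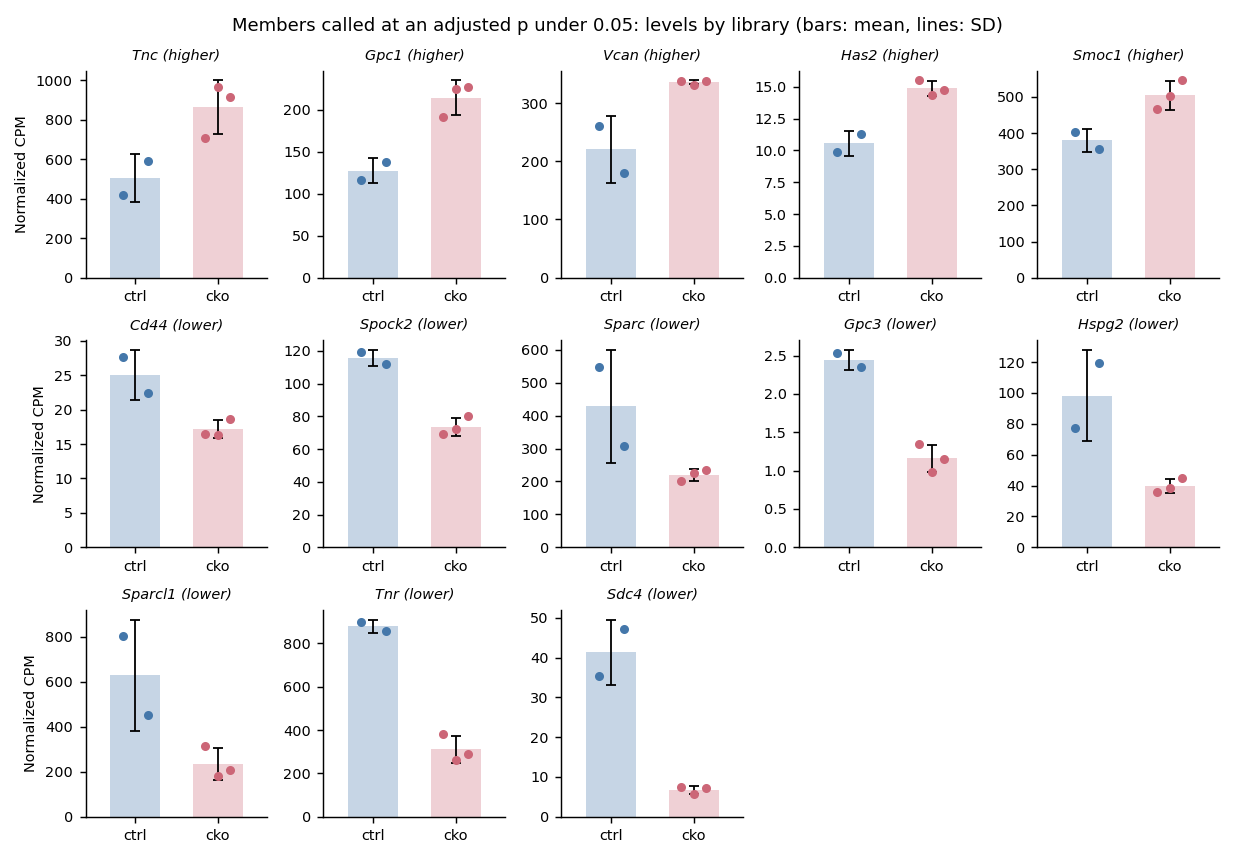
Normalized CPM in every library is plotted for the 13 called members, with points for libraries, bars for means and lines for SD (ctrl n = 2, cko n = 3). No cko point of *Tnr* or *Sdc4* comes near a ctrl point, whereas the 2 ctrl points of *Sparc*, at 549.6 and 307, are farther apart than the lower of them is from the cko points.

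The ctrl libraries were far apart in some members. Of the 32 tested members 3, namely *Acan*, *Gpc4* and *Prelp*, differed by more than 2-fold between ctrl 1 and ctrl 3 after adding 0.5 CPM, and these were not called. Transcripts of glial markers differed beside the members. Of 12 oligodendrocyte-lineage markers 58.3% were lower and 16.7% higher in cko NSCs, and of 8 astrocyte markers 62.5% were lower, where 8.57% of all tested genes were lower and 7.86% higher. *Sox10*, a transcription factor of the oligodendrocyte lineage, was at 162 and 190 normalized CPM in ctrl and at 54.4, 41.2 and 45.3 in cko NSCs, while *Olig2*, which precedes it, was at 539 and 649 against 741, 819 and 761. The whole oligodendrocyte list summed to 3924 and 4584 in ctrl and to 3799, 3936 and 3832 in cko NSCs. Much of this sum was *Olig1*, called higher, at 1097 and 1351 in ctrl and 1809, 1994 and 1879 in cko NSCs. Without *Olig1* each cko library summed to less than both ctrl libraries. The astrocyte list summed to 3043 and 2008 in ctrl and to 1535, 834 and 869 in cko NSCs. Bulk libraries cannot tell fewer cells of a type from less RNA per cell, and the part of these cells in the fall of *Tnr*, *Sparc* and *Sparcl1* was not tested.

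**Figure D4:**
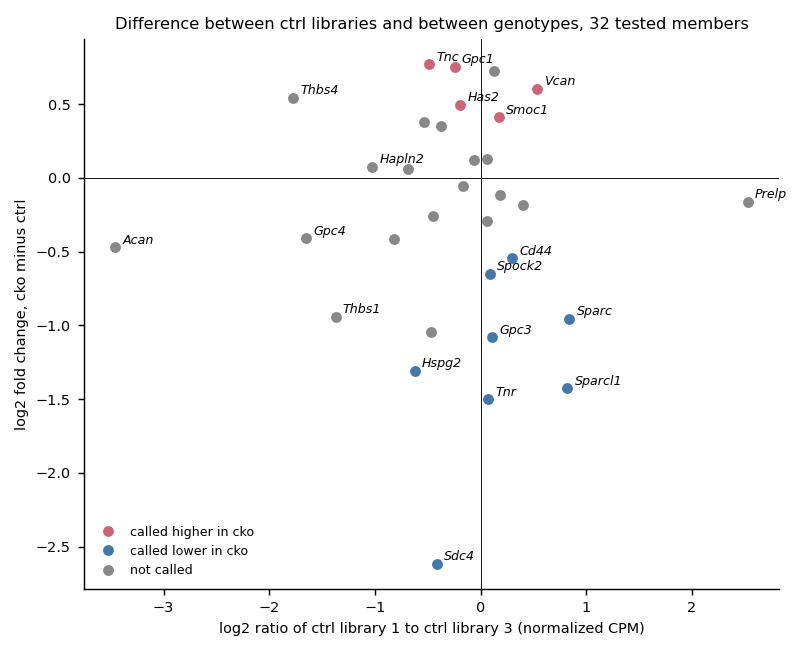
The log2 ratio of ctrl 1 to ctrl 3 (horizontal) and the log2 fold change of cko minus ctrl (vertical) are plotted for the 32 tested members, in red where called higher, blue where called lower and grey where not called. *Tnr* and *Spock2* lie near 0 on the horizontal axis and well below 0 on the vertical axis, whereas *Acan* and *Prelp* lie at the far left and far right, within 0.5 of 0 on the vertical axis.

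The enzymes that build, modify and degrade the sugar chains of these proteins were examined with other matrix proteins and receptors in a list of 91 genes. Of its 73 tested genes 4 rose (5.48%) and 11 fell (15.1%) in cko NSCs, against 7.86% and 8.57% of all tested genes, and their median log2 fold change was -0.02. Leaving out cko 2 or cko 3 reduced these to 3 higher and 3 lower, and without ctrl 3 there were 10 and 12. The share of all tested genes called was not counted in those fits. *Glce*, *Hmmr*, *Ugdh*, *Ust*, *Sulf2* and *Hyal1* kept their call in every fit that left out 1 library. *Cemip2*, *Xylt2* and *Ptprf* lost theirs without cko 2 or cko 3 (adjusted p = 0.0562 to 0.123 in edgeR). *Chsy1*, *Chst15* and *Ccn4* lost theirs without any one of the cko libraries (0.0535 to 0.108), and *Ccn4* had too few reads for the test once either ctrl library was left out. *Chpf*, *Papss2* and *Ccn1* lost their call without any one of the cko libraries or ctrl 1 (0.0503 to 0.164).

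Among the enzymes of chondroitin and dermatan sulfate, 2 of 6 genes of chain extension (33.3%) and 2 of 9 of chain modification (22.2%) were called, all lower. Of all tested genes 8.57% were lower and 7.86% higher. Of the genes that extend the chain, *Chsy1* changed by -0.37 on the log2 scale (edgeR, adjusted p = 0.0233) and *Chpf* by -0.34 (adjusted p = 0.0486, just under the threshold). *Xylt2*, which starts the linker of chondroitin and heparan chains alike, changed by -0.54, from 34.8 and 37.5 normalized CPM to 21.3, 26.9 and 26.3. *Xylt1*, listed for the same role, was more abundant, at 204 and 336 in ctrl and 277, 319 and 303 in cko NSCs. It was not called (log2 fold change 0.15, adjusted p = 0.631 in edgeR). *Ust*, a sulfotransferase that acts on uronic acid in these chains, fell from 44.0 and 45.2 normalized CPM in ctrl to 22.5, 22.0 and 21.3 in cko NSCs (log2 fold change -1.02, standard error 0.086, adjusted p = 0.00109 in edgeR). *Chst15*, another sulfotransferase, fell with a log2 fold change of -0.96. The other 11 tested genes of chain extension and modification for these sugars were not called. Among them *Chsy3*, a relative of *Chsy1*, was at 1.09 and 1.33 normalized CPM in ctrl and at 2.01, 1.71 and 2.71 in cko NSCs (log2 fold change 0.83, adjusted p = 0.129 in edgeR).

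Of 13 tested genes of heparan sulfate modification 1 rose and 1 fell, or 7.69% in each direction, close to the 7.86% and 8.57% of all tested genes. *Glce*, the epimerase that turns glucuronic into iduronic acid, rose from 30.3 and 35.1 to 59.9, 69.5 and 69.2 normalized CPM (log2 fold change 1.02, standard error 0.11, adjusted p = 0.00229 in edgeR). *Sulf2*, an extracellular sulfatase that trims 6-O-sulfate, fell from 317 and 406 to 177, 187 and 184 (log2 fold change -0.98, standard error 0.11, adjusted p = 0.00248 in edgeR). Among 5 genes of heparan chain extension *Extl1* had the smallest p (log2 fold change -1.93, adjusted p = 0.0938 in edgeR). *Ugdh*, which makes the UDP-glucuronic acid shared by all these chains and by hyaluronan, rose from 77.6 and 75.2 to 118, 113 and 116 (log2 fold change 0.595, standard error 0.071, adjusted p = 0.00294 in edgeR). *Papss2*, which makes the sulfate donor, fell from 4.63 and 2.77 to 1.40, 1.59 and 1.75, while *Papss1*, at 219 to 241 in all libraries, was not called.

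In hyaluronan turnover, *Hyal1*, a lysosomal hyaluronidase, fell from 12.01 and 16.2 normalized CPM in ctrl to 5.54, 6.13 and 4.23 in cko NSCs (log2 fold change -1.41, adjusted p = 0.00673 in edgeR). *Cemip2*, which cleaves hyaluronan at the cell surface, rose with a log2 fold change of 0.43. *Hmmr*, a hyaluronan receptor that also serves the mitotic spindle, rose from 38.8 and 46.4 to 88.5, 109 and 96.0 (log2 fold change 1.204, adjusted p = 0.00207 in edgeR). Among receptors of chondroitin sulfate, *Ptprf* fell from 358 and 385 to 259, 281 and 273 (log2 fold change -0.45, adjusted p = 0.00974 in edgeR), and *Ptprs* was not called (0.18, adjusted p = 0.307). Of the other matricellular genes *Ccn1* (-0.77) and *Ccn4* were lower, the latter with 12 and 12 counts in ctrl and 0, 0 and 2 in cko NSCs. *Ccn4* passed the filter on low counts only through its ctrl libraries. Its place among the lower genes of the list therefore depended on the group where it was high. Among other proteoglycan cores 7 were tested, and *Col18a1* (1.16, adjusted p = 0.0892 in edgeR) had the smallest p. *Ptprz1*, whose product phosphacan binds tenascins, was at 3539 and 3462 in ctrl and 3763, 3300 and 3330 in cko NSCs, and *Cspg4*, the NG2 gene, was at 193 and 389 against 278, 369 and 384.

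**Figure D5:**
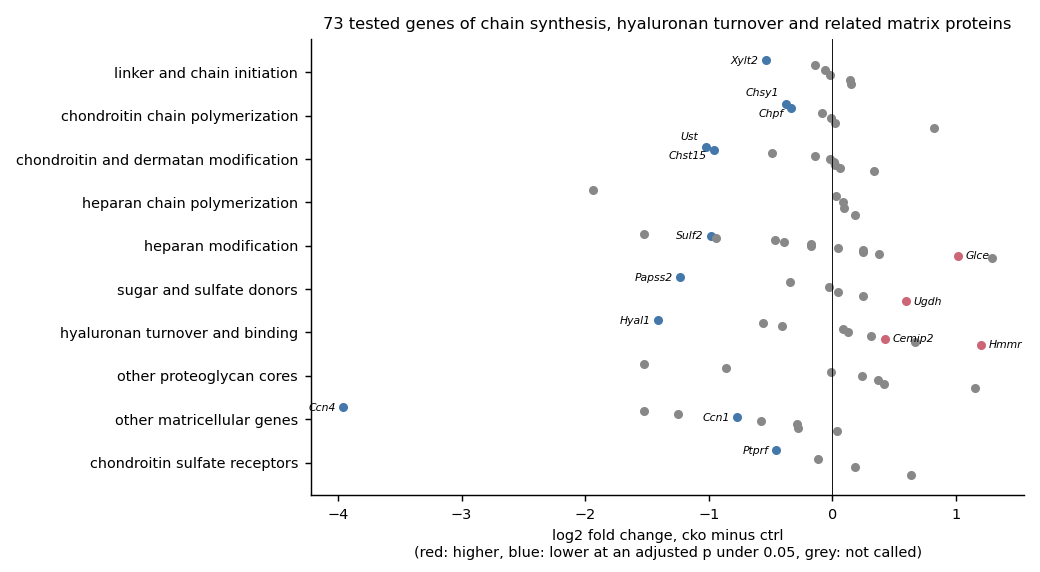
The log2 fold change of cko minus ctrl is plotted for the 73 tested genes of the list, in rows by role, and the 15 called genes are named. The chondroitin chain rows hold *Chsy1*, *Chpf*, *Ust* and *Chst15* to the left of 0, and heparan modification holds *Glce* at 1.02 and *Sulf2* at -0.98.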

How the data were processed

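RNA was sequenced from NSCs of 2 genotypes. Per the paper, reads were quality-filtered (NGSQC) and mapped with HISAT2 to mm10, although the labels name GRCm39. The authors deposited raw counts per Ensembl gene, without normalization. The counting tool, annotation and strand setting are not given in the sources used here. The labels describe a column RNA kit and the paper TRIzol.

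The ctrl 2 column, a rounded mean, entered no n. Symbols, exon lengths and positions came from GENCODE M21 (GRCm38), which matched 31829 of 32493 IDs. Genes kept by edgeR's filter on low counts (16710) were normalized by TMM (factors 0.990 to 1.01) and tested by the quasi-likelihood test (R 4.3.3, edgeR 4.0.16) with Benjamini-Hochberg adjustment. Standard errors were taken as the log2 fold change over the square root of F. Values are CPM on TMM-scaled totals of each library, and "per kb" divides by merged exon length. Intervals and floors cover counting error only. Members and lists were chosen with earlier results of these data known. Library values are given for called members and for tested members on which a family, the neural matrix contrast or the spread of libraries turns. Of the chain and matrix list the 4 called genes with the smallest p in each direction were named by rule, and its others were named after their values were seen. Alternatives were DESeq2 1.42.0, all 6 columns, other size factors and filters, the replicate block and leaving out each library. Replicate numbers come from the labels, and no source says that they pair libraries. In simulated counts over 16356 genes, edgeR recovered 76% of 100 genes changed by 1 and 97% of 100 changed by 2 on the log2 scale. Of its calls 7.49% were false. The changed genes were drawn from those with a mean above 1 CPM, and both genotypes were given the same dispersion. In the data 16.4% of tested genes were called, and the ctrl libraries lay farther apart than the cko libraries. These rates therefore need not hold for the data or for genes with few reads. Promoters came from RefSeq. Figures used matplotlib 3.10.9.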

Additional observations from a re-analysis of the deposited data

How the results depend on the processing

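Alternatives other than leaving out a library left the 8 lower members between 6 and 12 and the 5 higher members between 3 and 7, and none turned the sign of a called member. With the replicate block on the 5 libraries, 3 members were higher and 6 lower, and *Has2*, *Cd44*, *Gpc3* and *Smoc1* lost their call (adjusted p = 0.118, 0.0965, 0.155 and 0.0783 in edgeR). With 2 shared numbers (Pearson's r of the deviations across genes 0.18 and 0.05) the block rests on a number only, and cko 2, without a partner, adds nothing to it. With the block on all 6 columns, 10 genes of the chain and matrix list were higher and 17 lower. Higher genes of that list numbered 7 in DESeq2 with 5 libraries, 9 in DESeq2 and 11 in edgeR with 6 columns, and lower genes 18 in DESeq2 with 6 columns. The 6-column fits count the averaged column as a library. Without a filter, 1 member passed the study's threshold in the higher direction, and the small leucine-rich proteoglycan median was -2.9999, since genes with few reads entered. Over the fits that left out 1 library, higher members numbered 1 to 8 and lower members 4 to 11, members past the study's threshold 0 to 1 higher and 5 to 7 lower, and genes of the list 3 to 10 higher and 3 to 12 lower. The neural matrix median ranged from -0.20 to 0.41 and the small leucine-rich proteoglycan median, 1 gene in 4 of these fits and 2 without ctrl 1, from -1.49 to -0.083. Without ctrl 1, *Bgn* joined *Prelp* and passed the filter only through its 31 counts in ctrl 3. The low end of -1.49 rests on it. The share of all tested genes called was not counted for the alternatives. Where 1 ctrl library remained, it was assumed to vary like the cko libraries. *Prelp* (1.605 without ctrl 1, -0.90 without ctrl 3) and *Gpc4* (0.64 without ctrl 3, -1.03 without ctrl 1) were called with opposite signs. *Has2* was also lost with a minimum of 10 counts in every library (adjusted p = 0.0512 in edgeR). Of 406 member values, 358 stayed on the same side of the threshold with no called value changing sign. Ratios of summed counts for genes with few reads cover counting error only. Leave-one-out values for genes of the chain and matrix list and for summed counts were added after seeing the data.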

Other observations

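Without a filter on low counts, *Smoc2* was called higher (adjusted p = 0.0370 in edgeR), and *Spock1*, with 19 of its 21 ctrl counts in ctrl 3, was not called lower (adjusted p = 0.0805). *Acan*, *Bgn* and *Spock1* had in common that ctrl 3 held most of their ctrl counts, with 18 of 20, 31 of 36 and 19 of 21.

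Further family genes are neighbours. *Fmod* and *Prelp*, 116 kb apart on chromosome 1, had 0 and up to 127 counts per library. *Gpc5* and *Gpc6*, 400.1 kb apart on chromosome 14, were at 1.05 and 5.69 normalized CPM per kb of exon in ctrl NSCs and at 0.515 and 4.25 in cko NSCs. *Dcn* and *Lum*, 47.0 kb apart on chromosome 10, were both at or under 4 counts in each library.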
